A study of Homo sapiens with 4 samples.

Results

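Keratins are the intermediate filament proteins of epithelial cells, and 8 keratin genes were described across 2 cell lines of anaplastic thyroid cancer: KRT7, KRT8, KRT18, KRT19, KRT80, KRT81, KRT17 and KRT15. They were taken by name from the deposited gene tables, 8 of the 54 keratin genes and of the 26485 gene identifiers there. None was chosen by a threshold, but they and the gene lists below were chosen with earlier results of these data known. Counts set beside shares of all genes are therefore descriptive only. mRNA libraries came from 8505C and SW1736 cells, both lines derived from anaplastic thyroid cancer, an undifferentiated carcinoma of the thyroid follicular cell. The groups were 8505C cells with 1.5 µM dihydrotanshinone (DHT here, a plant compound of the tanshinone class, unlike the androgen with that abbreviation), 8505C cells with the vehicle DMSO, SW1736 cells with 1.5 µM DHT and SW1736 cells with DMSO. All cultures were treated for 24 h in the same serum-containing medium, and each group was represented by 1 library. No difference below therefore has a replicate check or a test, and a line stands for itself only.

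A keratin filament is built from heterodimers of a type I (acidic) and a type II (basic) keratin, so that neither type forms filaments alone. KRT8 (type II) and KRT18 (type I) are the first pair of simple epithelia, to which ducts and glands, the thyroid included, add KRT7 (type II) and KRT19 (type I). KRT14, KRT15 and KRT17 are type I keratins of basal, appendage or wounded epithelium, KRT80 is a type II keratin found in many epithelia, and KRT81 is a type II hair keratin. Of the 8 genes 4 are type II and 4 type I, while 5 lie on chromosome 12 and 3 on chromosome 17, since KRT18 is the type I gene that sits beside the type II genes.

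All keratins share a central coiled-coil rod, and the end of that rod is among the most alike stretches of the family. It is shown here because its likeness bears on how reads can be told apart. In the coding transcripts of GENCODE 29 (GRCh38), the last match to tyrosine or phenylalanine, arginine or lysine, any residue, leucine, leucine and glutamate was located in 7 of the 8 genes. The 30 bases around it, with the 6 matched codons in capitals, read 5′ to 3′ on the coding strand as follows.
KRT7: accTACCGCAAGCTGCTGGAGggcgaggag
KRT8: accTACAGGAAGCTGCTGGAGggcgaggag
KRT81: accTACAGGCGCCTGCTGGAGggcgaggag
KRT18: accTACCGCCGCCTGCTGGAAgatggcgag
KRT19: accTACCGCAGCCTGCTCGAGggacaggaa
KRT17: accTACCGCCGCCTGCTGGAGggagaggat
KRT15: actTACCGCAGCCTGCTCGAGggccaggat
KRT14: accTACCGCCGCCTGCTGGAGggcgaggac
KRT14, a keratin outside the 8 that was expressed in 8505C, is shown as well. KRT7 and KRT8 had 28 of 30 bases in common, KRT17 and KRT14 28, KRT19 and KRT15 27, and KRT18 and KRT19 21. The stretch lies in exon 7 of KRT7 (chr12:52245598-52245627, + strand), of KRT8 (chr12:52898684-52898713, - strand) and of KRT81 (chr12:52287107-52287136, - strand). It lies in exon 6 of KRT18 (chr12:52952305-52952334, + strand), KRT19 (chr17:41523782-41523811, - strand), KRT17 (chr17:41620664-41620693, - strand), KRT15 (chr17:41515477-41515506, - strand) and KRT14 (chr17:41583240-41583269, - strand). No match was found in KRT80 with this pattern.

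Longer shared stretches limit how far some members can be separated. Of all windows of 50 bases in the mRNA, 1.79% of those of KRT19, 0.420% of those of KRT80 and 0.328% of those of KRT15 occur exactly in a transcript of another gene. The share was 44.6% for KRT81, of which 721 of 1880 windows are found in KRT86, another hair keratin. It was 41.3% for KRT8 and 47.6% for KRT18, mostly in pseudogenes and, for KRT18, in transcripts of KRT8 read in the opposite direction (21.6%). For KRT17 it was 17.4%, in its pseudogenes for the most part, and the longest coding run that KRT17 shares with KRT14 has 59 bases (chr17:41621609-41621667, - strand, exon 4 of KRT17).
KRT17 and KRT14: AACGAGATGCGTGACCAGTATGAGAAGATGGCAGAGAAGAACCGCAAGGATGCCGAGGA
For KRT7, 10.4% of windows occur in KRT7-AS on the opposite strand. In the deposited tables the loci of KRT8 (chromosome 12, 52897187 to 52949866, - strand) and KRT18 (52948871 to 52952901, + strand) overlap by 996 bases. Whether strand was used in counting is not given in the sources used here, so the values of KRT8, KRT18 and KRT7 could each hold reads of the other strand. The 8 keratin pseudogenes in the tables reached at most 0.137 TPM in any library. Shared windows of 50 bases of KRT8 lie in 37 other genes and those of KRT18 in 45, so these 8 do not cover all of the sharing genes.

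Levels are given as deposited TPM (a share of all transcripts, scaled by transcript length), which allows genes to be compared within a library. From the ratio of coverage to FPKM, 3.25 to 4.13 Gb of bases were aligned per library. Fragment numbers are unknown, and values are given without a counting interval. Defining markers were checked against the thyroid label: TSHR, a marker of differentiated thyroid cells, was listed at 0 in all 4 libraries, TG was at most 0.0587 TPM, and the epithelial genes CDH1 and EPCAM were at most 0.0631 and 0.184 TPM. PAX8, a thyroid transcription factor, was at 0.240 and 0.282 TPM in 8505C with DHT and DMSO, against 117 and 87.1 TPM in SW1736. The 11 thyroid markers summed to 188 and 84.2 TPM in 8505C, against 175 and 176 TPM in SW1736. Most of the 8505C sum was NKX2-1, another thyroid transcription factor, with 174 and 69.8 TPM in 8505C, and listed at 0 in both SW1736 libraries. Of 8 immune markers 2, CD14 and CD68, reached a mean of 1 TPM, with a sum of 15.4 to 67.4 TPM per library, while PTPRC was at most 0.0498 TPM. Fibroblast markers summed to 14.0 and 7.54 TPM in 8505C and to 291 and 594 TPM in SW1736 with DHT and DMSO, nearly all of it COL1A1 and COL1A2 there, with PDGFRA and FAP listed at 0 in all libraries. Endothelial markers summed to 208 and 172 TPM in 8505C and to 0.255 and 0.269 TPM in SW1736. Nearly all of the 8505C sum was CDH5 and TIE1, which were listed at 0 in SW1736, and KDR was listed at 0 throughout. Their part in the keratin values was not tested, and in bulk RNA fewer cells with a keratin and less keratin mRNA per cell cannot be told apart.

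The keratin mRNAs of the 2 lines were compared first. Both lines had abundant KRT7, KRT8 and KRT18. KRT19 was abundant in SW1736 and listed at 0 in 8505C. KRT17 and, outside the 8, KRT14 were present in 8505C and listed at 0 in SW1736. Together the 8 genes held 3709 and 2940 TPM in 8505C with DHT and DMSO, and 3987 and 4125 TPM in SW1736. That is 96.3% and 97.0% of all keratin TPM in 8505C, and 98.8% and 99.1% in SW1736.

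**Figure D1:**
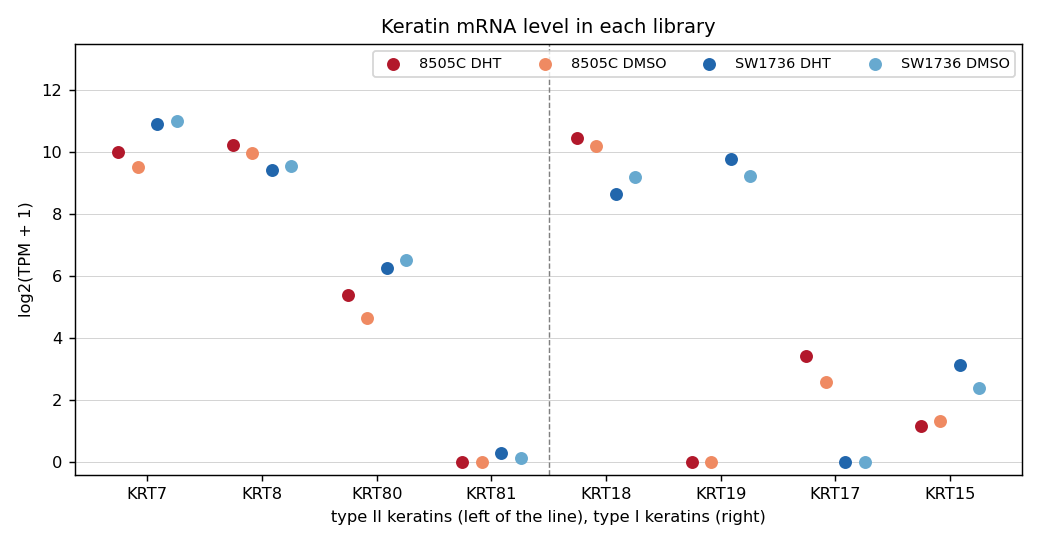
Level of the 8 keratin mRNAs as log2(TPM + 1), 1 point per library, with type II genes left of the dashed line and type I genes right of it. KRT19 lies at 883 and 607 TPM in SW1736 and at 0 in 8505C, and KRT17 lies at 9.79 and 5.06 TPM in 8505C and at 0 in SW1736.

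Among the type II genes, KRT7 (chromosome 12, 52233170 to 52248925) had 1026 and 734 TPM in 8505C with DHT and DMSO, against 1930 and 2081 TPM in SW1736. It was the highest keratin of SW1736, ranking 85 and 60 among the 11704 protein-coding genes that averaged 1 TPM or more. Both 8505C libraries were lower than both SW1736 libraries. KRT8 had 1213 and 1005 TPM in 8505C, against 686 and 755 TPM in SW1736, and here both 8505C libraries were the higher ones. KRT80 (52168996 to 52192000) had 41.4 and 24.1 TPM in 8505C, against 77.0 and 92.0 TPM in SW1736. KRT81 (52285913 to 52291515) was listed at 0 in both 8505C libraries, and had 0.229 and 0.0940 TPM in SW1736. It was the member that did not reach a mean of 1 TPM, and its near-copy KRT86 was at most 1.24 TPM, in SW1736 with DHT.

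Among the type I genes, KRT18 had 1418 and 1170 TPM in 8505C, against 403 and 585 TPM in SW1736, so that it was the highest keratin in 8505C. KRT19 (chromosome 17, 41523617 to 41528389) was listed at 0 in 8505C with DHT and with DMSO, against 883 and 607 TPM in SW1736. None of 87 ribosomal protein and housekeeping genes was listed at 0 in any library. At a minimum of 100 TPM in both SW1736 libraries, 5 genes were listed at 0 in both 8505C libraries, and KRT19 was the second of these by mean TPM. KRT17 (41619440 to 41624630) had 9.79 and 5.06 TPM in 8505C, and was listed at 0 in both SW1736 libraries. KRT15 (41513745 to 41519018) was low in all, at 1.25 and 1.51 TPM in 8505C, against 7.79 and 4.23 TPM in SW1736. KRT18 and KRT17 were higher in both 8505C libraries, and KRT19 and KRT15 in both SW1736 libraries.

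The level order of the members differed between the lines. In both 8505C libraries it ran KRT18, KRT8, KRT7, KRT80, KRT17, KRT15. In SW1736 it began with KRT7. With DHT it went on with KRT19, KRT8 and KRT18, and with DMSO with KRT8, KRT19 and KRT18. In both, KRT80, KRT15 and KRT81 came last. With 1 library a group, it is unknown whether neighbours in this order, such as KRT8 and KRT18 in 8505C or KRT18 and KRT19 in SW1736 with DMSO, differ beyond the spread between cultures.

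The other 46 keratin genes were mostly silent: 36 were listed at 0 in all 4 libraries, 7 had a mean below 1 TPM, and 3 reached it. KRT10, a keratin of differentiating epidermis, had 56.8 and 51.3 TPM in 8505C, against 43.5 and 36.7 TPM in SW1736. KRT14 (chromosome 17, 41582279 to 41586895), the main type I keratin of basal cells, had 85.5 and 38.1 TPM in 8505C and was listed at 0 in both SW1736 libraries. KRT34, a hair keratin, was at 0.465 to 1.53 TPM. KRT5, the type II partner of KRT14 in basal epithelium, was listed at 0 in all libraries, as were KRT6A, KRT6B and KRT16. KRT14 was 8.73 and 7.52 times KRT17 in 8505C with DHT and DMSO.

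Seen along chromosome 17, genes near each other were expressed in different lines. KRT19 lies 4598 bases past KRT15, and both were higher in SW1736. KRT14 begins 53.9 kb past the end of KRT19, and KRT17 a further 32.5 kb on. KRT14 and KRT17 were both listed at 0 in SW1736 and present in 8505C. Between them lies KRT16, which was listed at 0 in all libraries.

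**Figure D2:**
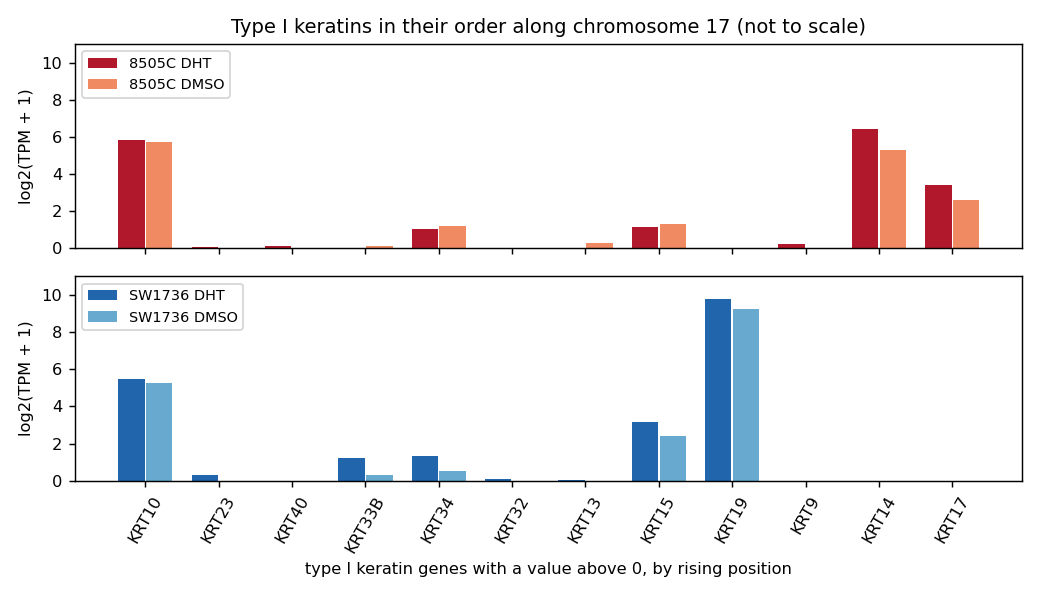
Level of the type I keratin genes of chromosome 17 that had a value above 0 in any library, in their order along the chromosome, as log2(TPM + 1) for DHT and DMSO, with 8505C above and SW1736 below. KRT14 and KRT17 are present in 8505C alone, and KRT19 in SW1736 alone.

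Expressed as shares of the keratin total, KRT7 made up 26.6% and 24.2% in 8505C with DHT and DMSO, against 47.8% and 50.0% in SW1736. KRT8 made up 31.5% and 33.2% in 8505C, against 17.0% and 18.2% in SW1736. KRT18 made up 36.8% and 38.6% in 8505C, against 9.97% and 14.1% in SW1736, where KRT19 held 21.9% and 14.6%. KRT18 and KRT19 together came to 1418 and 1170 TPM in 8505C, against 1286 and 1192 TPM in SW1736. Their sum differed less between the lines than either gene did.

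The balance of the types differed as well. All type I keratins came to 0.690 and 0.719 times all type II keratins in 8505C with DHT and DMSO, against 0.497 and 0.421 times in SW1736. KRT18 was 1.17 and 1.16 times KRT8 in 8505C, against 0.587 and 0.774 times in SW1736. The TPM of KRT8 is high relative to its coverage: its coverage per FPKM was 2.59 to 3.29 in the 4 libraries, beside 3.27 to 4.15 for KRT7. By coverage, KRT18 was 1.41 and 1.40 times KRT8 in 8505C, and 0.705 and 0.930 times in SW1736.

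**Figure D3:**
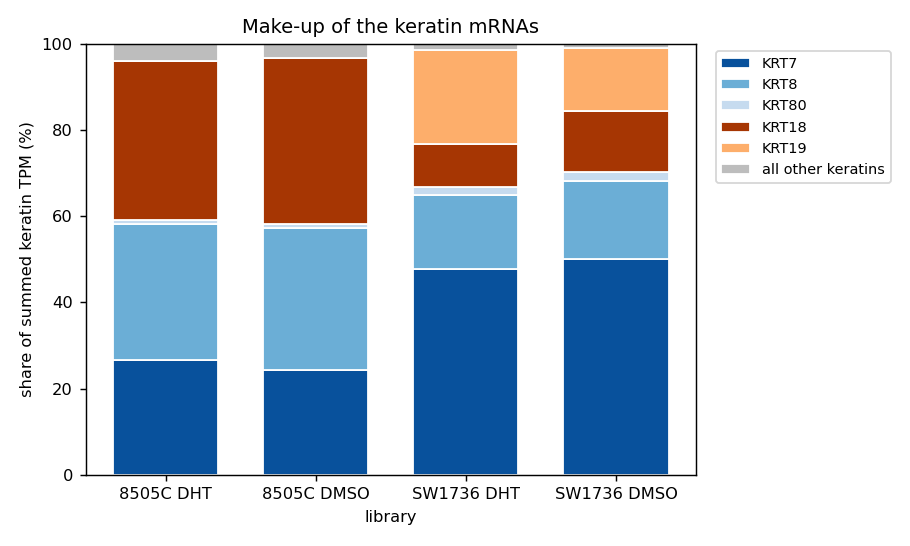
Share of each keratin in the summed TPM of all keratin genes, in percent, 1 bar per library, with type II genes in blue and type I genes in brown and orange. KRT18 takes 36.8% and 38.6% of the 8505C bars, whereas KRT19 takes 21.9% and 14.6% of the SW1736 bars.

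For the lines with DMSO, genes were counted as different at 1 or more on the log2(TPM + 1) scale, that is 2-fold for well-expressed genes. Of the 7 members that reached a mean of 1 TPM, 5 differed between 8505C and SW1736, beside 22.6% of all 11704 genes. KRT17 was higher in 8505C (9.97% of all genes were), and KRT19, KRT80, KRT7 and KRT15 were lower (12.6% of all genes were). The log2 difference of 8505C over SW1736 was -1.89 for KRT80, -1.50 for KRT7 and -1.06 for KRT15. No fold is given for KRT17 and KRT19, which were listed at 0 in one line. Both reached the mean of 1 TPM only through the other line, so counting them as different is not independent of that filter. KRT18 lay at the limit, with a ratio of 2.00 and a log2 difference of 0.999 (1.04 centred on the median gene), and KRT8 was at 0.41. On the log2(FPKM + 1) scale KRT15 was at -0.78, from 0.658 FPKM in 8505C against 1.86 in SW1736. Adding 1 shrinks the difference between values this low. The median of the 7 was -1.06, beside -0.05 for all genes.

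With DHT, 4 of the 7 members differed between the lines, beside 35.3% of all genes. KRT18 (log2 1.81) and KRT17 were higher in 8505C, beside 24.7% of all genes. KRT15 (-1.97) and KRT19 were lower, beside 10.6%. Here too KRT17 and KRT19 passed the filter only through the line that held them. KRT7 was at -0.91, KRT80 at -0.88 and KRT8 at 0.82, all short of 2-fold. Centred on the median gene, KRT7 (-1.29) and KRT80 (-1.26) passed it, and with FPKM too (-1.12 and -1.06). The comparisons of the lines share no library with each other, but each shares its libraries with the treatment comparisons below.

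With DHT against DMSO, no member reached a 2-fold difference in either line. Since KRT19 was listed at 0 in both 8505C libraries and KRT17 in both SW1736 libraries, 6 members could differ in each line. In 8505C the count of 0 of 6 stood beside 0.444% of all genes, and in SW1736 beside 18.3%. KRT14 in 8505C was the keratin at a mean of 1 TPM or more that did so, with 85.5 TPM with DHT against 38.1 TPM with DMSO, a log2 fold of 1.15.

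In 8505C, 5 of the 6 members with a value had higher TPM with DHT, whereas 42.1% of all genes did. The log2 fold was 0.83 for KRT17, 0.75 for KRT80, 0.48 for KRT7, 0.28 for KRT18, 0.27 for KRT8 and -0.15 for KRT15. These folds were small, but few genes of 8505C lay above KRT17, KRT80 and KRT7. KRT17 and KRT80 were above 99.5% and 99.4% of all genes, KRT7 above 97.9%, KRT18 above 93.7% and KRT8 above 93.3%. KRT15 was above 17.5%. The middle 90% of all genes lay between -0.26 and 0.32, a range that held KRT18, KRT8 and KRT15. The 8 genes together came to 3709 TPM with DHT against 2940 TPM with DMSO, a log2 fold of 0.33. With FPKM it was 0.36, and centred on the median gene 0.37.

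In SW1736, the members went different ways. KRT15 had 7.79 TPM with DHT against 4.23 with DMSO (log2 fold 0.75), and KRT19 883 against 607 (0.54). KRT18 had 403 TPM with DHT against 585 with DMSO (-0.54). KRT7 was at -0.11, KRT8 at -0.14 and KRT80 at -0.25. The median gene of this line was itself displaced, at -0.42, and 20.8% of all genes had a fold above 0. Against that displacement KRT19 lay above 94.9% of all genes and KRT15 above 96.3%, and KRT18 above 41.3%. The 8 genes together came to 3987 TPM with DHT against 4125 TPM with DMSO, a log2 fold of -0.05.

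**Figure D4:**
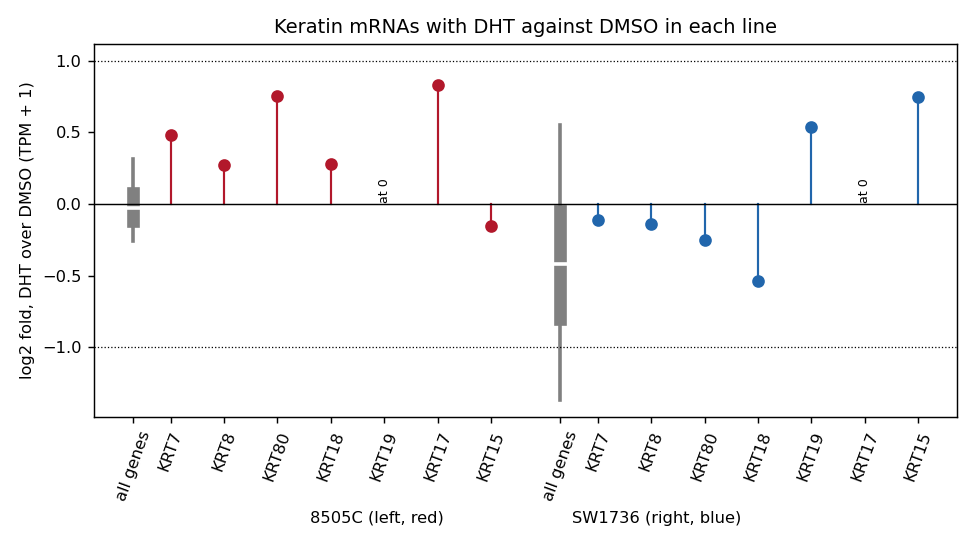
Log2 fold of DHT over DMSO on the TPM + 1 scale for the 7 members averaging 1 TPM or more, 8505C left and SW1736 right, with dotted lines at 2-fold. Grey bars show all 11704 genes (thick, middle 50%; thin, middle 90%; white, median), and in 8505C KRT7, KRT80 and KRT17 lie above 0.32, the upper end of the grey bar, whereas the members of SW1736 spread on both sides of 0.

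The direction of some members in SW1736 depended on the scaling. The sum of FPKM there was 511866 with DHT against 438583 with DMSO. With FPKM, KRT7 was at 0.11, KRT8 at 0.08 and KRT80 at -0.03. Centred on the median of the 9748 genes averaging 5 TPM or more (-0.43), KRT7 was at 0.32, KRT8 at 0.29 and KRT80 at 0.17. KRT18 stayed below 0, at -0.31 with FPKM and -0.11 centred, and KRT19 above it, at 0.76 and 0.97. KRT15 was at 0.80 with FPKM and reached 2-fold when centred, at 1.18. The summed members were at 0.17 with FPKM and 0.38 centred. In 8505C no member changed direction under these scalings.

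**Figure D5:**
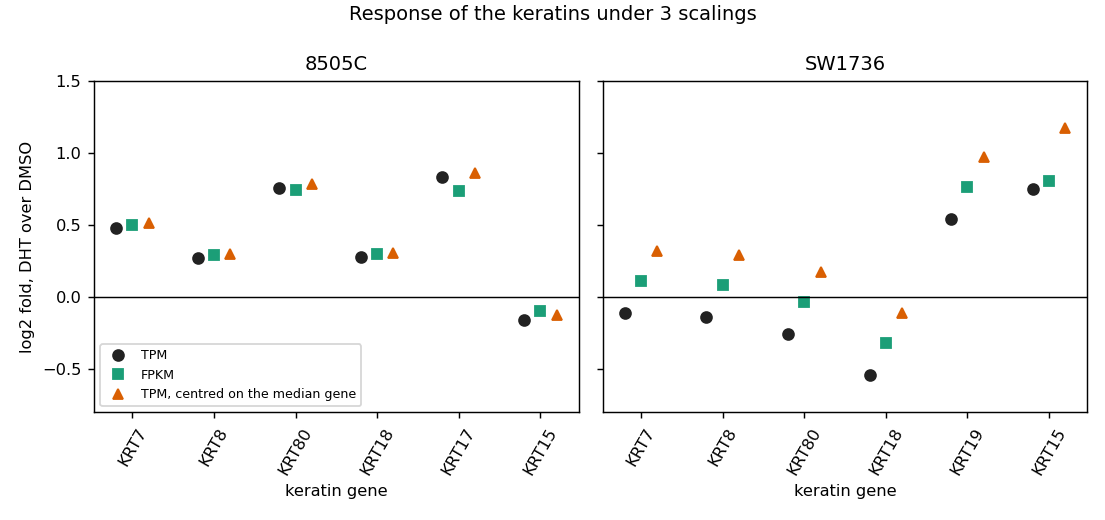
Log2 fold of DHT over DMSO of each expressed member in 8505C (left) and SW1736 (right), from TPM, from FPKM and from TPM centred on the median gene. In SW1736 KRT7 and KRT8 lie on both sides of 0, while KRT18 lies below and KRT19 and KRT15 above it in all 3.

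Likeness over the 4 libraries was measured as the distance between centred log2(TPM + 1) values, for members with a mean of at least 5 TPM that ranged over at least 1. Over so few libraries it is a description. KRT18 was closest to TFAP2A (distance 0.05), which encodes a transcription factor of epithelial and neural crest cells. TFAP2A had 121 and 101 TPM in 8505C with DHT and DMSO, against 32.7 and 50.3 TPM in SW1736. CDC42EP2 and PTGR2 followed (both 0.10). KRT7 was closest to ENDOV (0.07), ZNF524 (0.07) and DUSP23 (0.12), and KRT80 to ENDOV (0.24), ZNF524 (0.27) and OBSL1 (0.28). KRT19 was closest to MT1E (0.53), CRIP1 (1.18) and CD70 (1.18), which were likewise at or near 0 in 8505C.

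Keratin filaments are anchored at desmosomes through plakins and armadillo proteins. Of 14 measured desmosome and cytolinker genes, 7 had 2-fold lower values with DHT in SW1736 (15.6% of all genes did) and none had 2-fold higher values (2.78% did). None were lower when centred on the median gene, where 476 of all 11704 genes were. By TPM, the median log2 fold of the 14 was -0.77, beside -0.42 for all genes. PLEC, which encodes plectin, a linker between filament systems, had 73.1 TPM with DHT against 195 with DMSO (-1.40). DSP, which encodes the desmoplakin that binds keratins, had 8.76 against 20.9 TPM (-1.16), and the desmosomal cadherin gene DSG2 9.25 against 21.8 (-1.15). In 8505C 0 of the 14 differed, beside 0.444% of all genes, with a median of 0.01 beside -0.03 for all genes. With DMSO, 7 of the 14 were higher in 8505C than in SW1736 (9.97% of all genes were) and 1 lower (12.6% were). DSC3, another desmosomal cadherin gene, had 39.9 and 41.1 TPM in 8505C with DHT and DMSO, and was listed at 0 in both SW1736 libraries.

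Hemidesmosomes tie keratins to the basement membrane. Of their 8 measured genes, 0 were higher (2.78% of all genes were) and 1 lower (15.6% were) with DHT in SW1736, a share near that of all genes. When centred on the median gene 1 was higher, ITGB4 (1.13), and 1 lower, beside 559 and 476 of all 11704 genes. In 8505C 0 differed, beside 0.444% of all genes. The gene lower by TPM was DST, which encodes the plakin dystonin, with 4.88 TPM with DHT against 20.0 TPM with DMSO (-1.84). With DMSO, 2 were higher in 8505C and 2 lower, beside 9.97% and 12.6% of all genes. LAMB3, a chain of the anchoring laminin, had 15.3 and 10.8 TPM in 8505C, against 171 and 120 TPM in SW1736. ITGA6, an integrin subunit, had 468 and 450 TPM in 8505C, against 84.5 and 165 TPM in SW1736.

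Of 8 other intermediate filament genes measured, 2 were lower with DHT in SW1736, LMNB1 (-1.17) and SYNM (-1.51), beside 15.6% of all genes. None were higher, beside 2.78%. When centred on the median gene 1 was lower (SYNM), beside 476 of all 11704 genes. In 8505C 0 differed, beside 0.444%. VIM, the vimentin of mesenchymal cells, exceeded all keratins together in each library. It had 4076 TPM with DHT and 3241 TPM with DMSO in 8505C, beside keratin sums of 3853 and 3031 TPM. In SW1736 it had 11431 TPM with DHT and 8401 TPM with DMSO, beside keratin sums of 4035 and 4162 TPM. Between the lines with DMSO, 0 of these genes were higher in 8505C and 3 lower, beside 9.97% and 12.6% of all genes.

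Among 16 measured genes for keratin regulators and binders, 1 was higher with DHT in SW1736 (2.78% of all genes were) and none lower (15.6% were). It was the co-chaperone gene BAG3, with 531 TPM with DHT against 187 TPM with DMSO (1.50). In 8505C 0 differed, beside 0.444% of all genes. HSPB1, a small heat shock protein that binds intermediate filaments, had 2017 TPM with DHT against 1487 TPM with DMSO in SW1736 (0.44), and 826 against 613 TPM in 8505C (0.43). Centred on the median gene, HSPB1 was at 0.87 in SW1736 and 0.46 in 8505C. With DMSO, 4 of the 16 were higher and 2 lower in 8505C than in SW1736, beside 9.97% and 12.6% of all genes.

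Of 15 measured genes for transcription factors linked to keratin genes, 7 were higher (2.78% of all genes were) and 2 lower (15.6% were) with DHT in SW1736, or 7 and 1 when centred on the median gene. The centred counts of 7 and 1 stood beside 559 and 476 of all 11704 genes. By TPM, the median log2 fold of the 15 was 0.54, beside -0.42 for all genes. In 8505C 0 differed, beside 0.444%, with a median of 0.14 beside -0.03. FOS and JUN, whose proteins join as the AP-1 transcription factor, had the highest log2 folds of the list in SW1736. FOS had 252 TPM with DHT against 0.840 TPM with DMSO (7.11), and JUN had 1575 against 82.7 TPM (4.23). In 8505C FOS had 3.34 against 3.74 TPM (-0.13) and JUN 120 against 112 TPM (0.10). KLF4, a factor of differentiating epithelium, had 48.1 TPM with DHT against 5.37 with DMSO (2.95), KLF5 35.0 against 15.5 (1.13) and SOX9 216 against 104 (1.05). ETS1 (1.50) and ETS2 (1.25) were higher too. NFIB was lower, with 8.64 TPM with DHT against 31.9 with DMSO (-1.77). SP1 was lower by TPM (-1.15) but short of 2-fold when centred (-0.72). TP63, the master factor of basal epithelium, was at most 0.0285 TPM. With DMSO, 3 were higher and 4 lower in 8505C than in SW1736, beside 9.97% and 12.6% of all genes. Among the lower ones was GATA3, with 0.0708 and 0.224 TPM in 8505C, against 19.9 and 26.7 TPM in SW1736.

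Other epithelial genes were low in both lines beside the abundant keratins. Of 26 listed, 11 reached a mean of 1 TPM. With DHT, 0 of them differed in either line, beside 0.444% of all genes in 8505C and 18.3% in SW1736. With DMSO, 1 was higher and 5 were lower in 8505C than in SW1736, beside 9.97% and 12.6% of all genes. CLDN1, which encodes a tight junction claudin, was close in both, with 58.0 and 64.7 TPM in 8505C, against 78.7 and 81.4 TPM in SW1736. GRHL2, an epithelial transcription factor gene, was at most 0.0268 TPM, and ESRP1 and GRHL3 were listed at 0 throughout.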

How the data were processed

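Per the labels' protocols, RNA was isolated with RNeasy Mini columns and 1 µg was made into libraries with the Universal Plus mRNA-Seq kit. The submitters' processing notes name bcl2fastq 2.20, StringTie and the hg38 build. Aligner, annotation and StringTie's version: not given in the sources used here. Each deposited table of the authors holds TPM, which sums to the same total in each library, FPKM, as deposited, scaled by mapped fragments and length, and coverage, as deposited, the mean read depth (a signal not scaled by library).

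Rows of a gene identifier were summed. Of 26485 identifiers 25362 matched a RefSeq gene by symbol, GENCODE 29 or synonym, 19027 of them protein-coding, and 11704 had a mean of at least 1 TPM. Folds are differences of log2(TPM + 1), and a difference of 1 counts as 2-fold. The scale understates the folds of low genes. A gene seen in 1 line alone passes the filter through that line, so its difference between the lines is not independent of the filter. With 1 library per group no test was made. The counting code was checked on simulated data with planted changes. They held no low genes and as many genes raised as lowered, so low genes and a displaced median were not checked. The members and lists were chosen with earlier results of these data known. Named were the 8 members, other keratins at a mean of 1 TPM, the genes of each list at a mean of 5 TPM with the 4 largest folds in a comparison or the 2 highest means, and the 3 genes closest in pattern to a member. Marker genes near 0, and ETS1, ETS2, SP1 and ITGB4, were named beyond that rule. Shared windows of 50 bases were searched on both strands of GENCODE 29 transcripts. The alternatives were pseudocounts of 0.1 and 5, no filter, FPKM, coverage, median scaling and the highest locus only. Python 3.11.15, pandas 2.3.3 and numpy 2.4.6 were used.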

Additional observations from a re-analysis of the deposited data

Results flagged for a closer look

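The TPM of 5 members and of the 8 together lay on opposite sides of 0 in the lines with DHT, a difference that was not tested, since each value rests on 1 library per group. The log2 fold in 8505C minus that in SW1736 was 0.59 for KRT7, 0.41 for KRT8, 0.81 for KRT18, 1.01 for KRT80 and -0.90 for KRT15, and 0.38 for the summed members. KRT18 and KRT15 kept opposite signs in the lines with FPKM and when centred on the median gene. KRT7, KRT8 and the sum were above 0 in both lines under both of these scalings, and KRT80 when centred. With FPKM the difference between the lines was 0.39 for KRT7, 0.21 for KRT8, 0.61 for KRT18, 0.78 for KRT80, -0.90 for KRT15 and 0.18 for the sum. Centred, it was 0.19 for KRT7, 0.013 for KRT8, 0.42 for KRT18, 0.61 for KRT80, -1.30 for KRT15 and -0.013 for the sum, so that for KRT8 and the sum little of it was left.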

How the results depend on the processing

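Omitting the filter and taking the highest locus could not move a member's fold, and 2 folds were fixed at 0 (KRT19 in 8505C, KRT17 in SW1736). Of the 104 other folds under the remaining 4 alternatives, 90 kept their direction and their side of 2-fold, 7 came to pass 2-fold, 2 ceased to, and 5 changed direction. The 5 were all in SW1736 with DHT: KRT7 (0.11 with FPKM, 0.32 with median scaling), KRT8 (0.084 with FPKM, 0.29 with median scaling) and KRT80 (0.17 with median scaling). The summed members there changed direction too, to 0.17 with FPKM and 0.38 with median scaling, and the count of members at 2-fold was 1 with median scaling (KRT15). The count of all genes at 2-fold in SW1736 with DHT was 914 with a pseudocount of 5, 1047 with FPKM and 1035 with median scaling, against 2147. In 8505C it was 127 with a pseudocount of 0.1 and 26 with one of 5, against 52. Between the lines a pseudocount of 5 gave 1600 genes with DMSO, against 2647, and 2540 with DHT, against 4133. The split of genes higher and lower in SW1736 with DHT was 325 and 1822 with TPM, 342 and 705 with FPKM and 559 and 476 centred, and that of 8505C over SW1736 with DHT was 2889 and 1244 with TPM, 1880 and 1333 with FPKM and 1691 and 1908 centred. The cause was not tested. No paired analysis was possible because each group has 1 library within a line. A fit with line as a block, which would take the lines as replicates of each other, was not run. No library could be left out, since each is the whole of its group. Read numbers are unknown. The deposited coverage of the low members, a mean read depth, was 18.0 and 7.23 for KRT17 and 2.30 and 2.15 for KRT15 in 8505C with DHT and DMSO, and 0.451 and 0.151 for KRT81 in SW1736.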

Other observations

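A few hair keratin genes outside the 8 had their highest value in SW1736 with DHT. They were chosen after their values were seen, and most lie below a mean of 1 TPM. KRT33B had 1.38 TPM with DHT against 0.254 TPM with DMSO in SW1736, KRT34 had 1.53 against 0.465 TPM, and KRT86 had 1.24 against 0.149 TPM. In 8505C with DHT and DMSO, KRT33B was listed at 0 and at 0.0872 TPM, KRT34 was at 1.06 and 1.27 TPM, and KRT86 was at 0.0457 TPM and listed at 0. KRT81, which shares long stretches with KRT86, had 0.229 and 0.0940 TPM in SW1736 with DHT and DMSO.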
